A study of Homo sapiens with 18 samples.

Results

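The genes described here encode the fibrous and sheet-forming proteins outside cells and the receptors that hold cells to them: collagens, laminins, integrins and 9 matrix glycoproteins. They were chosen by a rule on gene symbols, which was set with earlier results of these data known. It takes all COL genes with an A chain number and the LAMA, LAMB and LAMC genes. Included too are ITGA and ITGB genes with the lettered integrin alpha chains, and FN1, TNC, SPARC, NID1, NID2, FBN1, FBN2, THBS1 and THBS2. On the arrays 92 probe sets of 90 genes met this rule, of 19460 probe sets of 18417 genes that carry exactly 1 symbol. A probe set is the group of array probes that reads out a gene. COL11A2 has 3 probe sets, and those numbered 8178897 and 8180105 hold identical values, so there are 91 distinct measurements. The rule also takes in ITGB1BP1, ITGB1BP2 and ITGB3BP, which encode proteins that bind integrin chains and are not integrins. COL17A1, LAMA3 and ITGA1, for example, had no probe set with their symbol alone and are not analysed here.

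All samples were H295R cells, an established human adrenocortical carcinoma line, carrying a stable, non-inducible pcDNA4 vector. In the control line the vector was empty, and in the GRα line it overexpressed the α form of the glucocorticoid receptor, which is encoded by NR3C1. After serum starvation each line received ethanol vehicle, the glucocorticoid dexamethasone at 100 nM or the receptor antagonist RU486 at 100 nM for 6 h. There were 3 arrays in each of the 6 groups except GRα cells with RU486, which had 2, because the replicate labelled A did not pass quality control and its column is empty. Replicates are labelled biological, but nothing says that each was a culture of its own, so the spread behind every p-value is that of these samples and may be technical. They also do not say whether a line is 1 clone or a pool, so the receptor cannot be told apart from any other difference between the 2 lines.

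Values are log2 intensities, and a difference of 1 on this scale is a doubling. Array medians lay between 6.28 and 6.35, and correlations between arrays over all single-symbol probe sets were 0.9865 to 0.9973 within a line and 0.9716 to 0.9771 across lines. The array of GRα cells with vehicle, replicate B, stood apart, with a median correlation of 0.9891 to its own line and an estimated array weight of 0.19. The NR3C1 probe set read 7.36 ± 0.07 (SD, n = 3) in control vehicle arrays and 7.94 ± 0.04 (SD, n = 3) in GRα vehicle arrays, without overlap in any treatment. The means of 12 adrenocortical markers in control cells with vehicle ran from 5.50 (MC2R) to 11.09 (DLK1) with a median of 9.11, among them STAR at 10.32, CYP17A1 at 9.54 and HSD3B2 at 7.29. On bulk RNA, fewer cells that express a gene and less RNA per cell cannot be told apart, and whether a probe set lay above background was not tested.

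Collagens are trimers of alpha chains. Fibrillar collagens build the tension-bearing fibrils of connective tissue, and type IV collagen forms the sheet of the basement membrane, into which laminin trimers and nidogens are woven. Integrins are pairs of an alpha and a beta chain that bind these proteins outside the cell and the actin cytoskeleton inside it. In the adrenal cortex a basement membrane surrounds the cords of steroid-producing cells, and glucocorticoids are known as regulators of matrix genes in many tissues.

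Sequences upstream of transcription starts are shown, in 5 windows, for genes on which the results turn. The genes are TNC, the member with the greatest difference between the lines; NID1 and LAMA2, which rose with dexamethasone in GRα cells; and the type IV collagen genes COL4A1 and COL4A2, which start back to back and fell together, beside COL4A4, which rose while its neighbour COL4A3 was called higher in no treatment. They come from RefSeq (GRCh38.p14), where 67 of the 90 member genes have an entry, and are read 5′ to 3′ on the gene's strand. The windows are chr9:115118158-115118407 (minus strand) for TNC, chr1:236065091-236065340 (minus) for NID1, chr6:128882888-128883137 (plus) for LAMA2 and chr2:227164206-227164455 (minus) for COL4A4, each the 250 bases before the start. The last window, chr13:110307158-110307283, is the whole stretch between the starts of COL4A1 and COL4A2, on the strand of COL4A2. Capitals mark CCAAT and GGGCGG, the CCAAT-box and GC-box letters, on either strand.
TNC: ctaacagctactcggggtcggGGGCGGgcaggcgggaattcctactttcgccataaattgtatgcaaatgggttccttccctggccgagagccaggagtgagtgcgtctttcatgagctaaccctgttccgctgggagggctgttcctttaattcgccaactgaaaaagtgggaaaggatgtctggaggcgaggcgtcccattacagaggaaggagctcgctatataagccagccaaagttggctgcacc
NID1: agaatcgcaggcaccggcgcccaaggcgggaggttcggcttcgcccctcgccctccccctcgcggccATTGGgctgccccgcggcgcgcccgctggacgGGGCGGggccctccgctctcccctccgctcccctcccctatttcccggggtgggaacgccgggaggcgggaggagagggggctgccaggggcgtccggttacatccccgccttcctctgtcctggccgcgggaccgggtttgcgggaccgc
LAMA2: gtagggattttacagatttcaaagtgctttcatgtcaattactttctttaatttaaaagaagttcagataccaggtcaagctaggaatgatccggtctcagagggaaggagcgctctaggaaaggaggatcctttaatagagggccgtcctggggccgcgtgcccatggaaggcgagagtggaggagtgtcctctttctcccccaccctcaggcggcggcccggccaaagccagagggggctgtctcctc
COL4A4: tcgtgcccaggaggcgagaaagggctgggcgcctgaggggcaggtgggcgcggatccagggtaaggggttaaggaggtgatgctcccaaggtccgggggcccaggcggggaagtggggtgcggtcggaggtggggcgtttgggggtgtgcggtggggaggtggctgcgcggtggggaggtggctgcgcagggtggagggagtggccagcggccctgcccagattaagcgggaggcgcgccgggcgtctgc
COL4A1-COL4A2 spacer: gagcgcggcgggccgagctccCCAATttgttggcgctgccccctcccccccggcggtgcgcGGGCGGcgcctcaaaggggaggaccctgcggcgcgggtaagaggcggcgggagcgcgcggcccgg

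AGAACA, the half-site of the glucocorticoid receptor's binding element, and TATAAA were searched on both strands too, and neither occurs in these windows. Among the 250-base upstream windows of all 27305 genes in the table, 12.4% hold AGAACA, 33% CCAAT, 42.3% GGGCGG and 11.1% TATAAA. Among those of the 67 member genes the shares were 7.46%, 28.4%, 55.2% and 8.96%. A pair of AGAACA half-sites facing each other 3 bases apart lay in 1 of the 27305 windows, which is no member's. GGGCGG lies once in the TNC and NID1 windows and in the spacer, and CCAAT once in the NID1 window and the spacer. The spacer is 126 bases long and 80.2% G or C. The starts of COL4A4 and COL4A3 lie 418 bases apart, and those of COL4A6 and COL4A5 379 bases for the nearer of the 2 COL4A6 starts, again on opposite strands.

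The first question was which of these genes differ between GRα and control cells. In vehicle 25 of the 92 member probe sets were higher in GRα cells and 11 lower (limma, Benjamini-Hochberg adjusted p under 0.05 over all 19460 probe sets), where 14.9% of all probe sets were higher and 18.1% lower. In dexamethasone 21 members were higher and 9 lower, beside 15.8% and 17.3% of all, and in RU486 20 were higher and 11 lower, beside 13.1% and 15.9%. Members called in either direction made up 39.1%, 32.6% and 33.7% in the 3 treatments, beside 33.1%, 33.1% and 29% of all probe sets. The share that differed in either direction is thus near that of the whole array and is no result about the group. Taken by direction, the members' share lay above that of all probe sets for rises and below it for falls in each treatment. Whether that split differs from the whole array was not tested. The median change of the members was 0.08 in vehicle, 0.0011 in dexamethasone and 0.04 in RU486, beside 0.0083, -0.02 and -0.01 over all probe sets.

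Over the treatments 19 members were higher in all 3 and 8 lower in all 3, beside 10.1% and 12% of all probe sets. Another 2 were called in 2 treatments, 12 in 1 treatment and 51 in none, beside 1451, 2713 and 10995 of all 19460 probe sets. No member had opposite calls, which 17 of all probe sets had. In vehicle 4 members were higher by at least 1 log2 unit and 1 was lower by as much, so most of the calls are changes of less than 2-fold. Such differences made up 5.43% of members in vehicle, 7.61% in dexamethasone and 7.61% in RU486, beside 2.29%, 2.55% and 2.45% of all probe sets. The arrays of the lines did not overlap within any of the treatments, in the same direction, for 31.5% of members and 27.2% of all probe sets. Lack of overlap with the treatments pooled, given for single genes below, is stricter and was not counted over all probe sets.

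**Figure D1:**
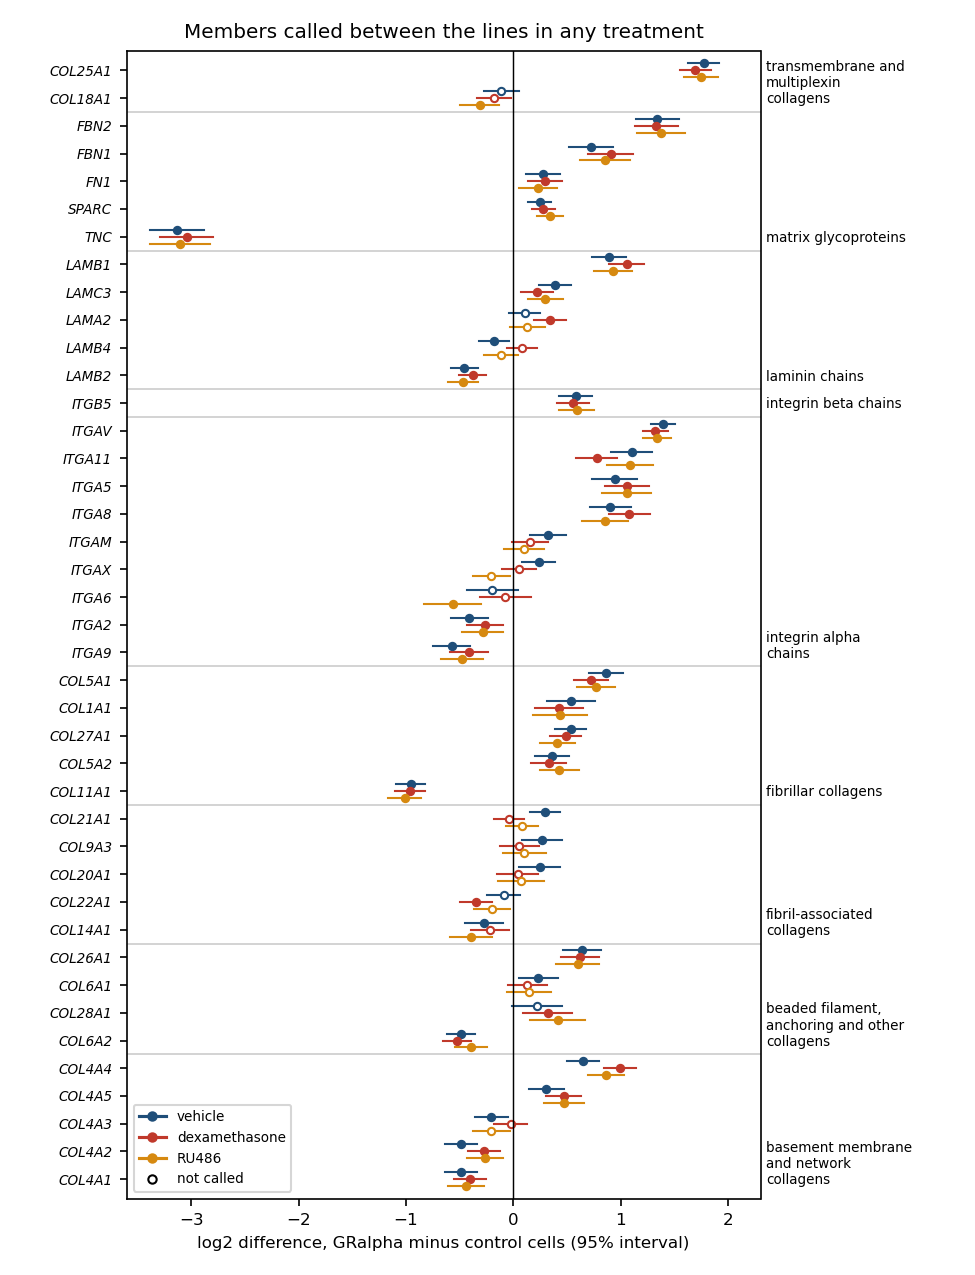
The log2 difference between GRα and control cells (x axis, points with 95% intervals) for the 41 members called in any treatment (y axis, by role), in vehicle, dexamethasone and RU486; open points were not called. TNC lies alone at the left near -3, and COL25A1, ITGAV and FBN2 lie farthest to the right in all 3 treatments.

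Among the fibrillar collagens, 4 of 13 probe sets were higher and 1 lower in vehicle, beside 14.9% and 18.1% of all probe sets. The same 5 genes were called in the other treatments. The 13 count COL11A2 with each of its probe sets, identical ones included. COL5A1, a chain of the type V collagen that starts and thins fibrils, read 6.02, 6.08 and 6.14 in the control vehicle arrays and 6.97, 6.81 and 7.04 in the GRα vehicle arrays. Over all treatments its control arrays ran from 6.01 to 6.20 and its GRα arrays from 6.74 to 7.04, so the lines did not overlap. The rise was 0.86 ± 0.07 (SE) in vehicle, 1.81-fold (adjusted p = 8.17e-08). Its partner chain COL5A2 rose by 0.36 ± 0.08 (adjusted p = 0.00135).

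COL1A1, the major chain of type I collagen, rose by 0.53 ± 0.11 in vehicle (adjusted p = 0.000688). Its partner COL1A2 was not called in any treatment, with a change of 0.07 in vehicle (95% interval -0.15 to 0.29). COL1A2 values were lower on the array, with means of 5.63 in control and 5.70 in GRα vehicle arrays. Those of COL1A1 were 7.08 and 7.62. COL27A1, a fibrillar collagen of cartilage, rose by 0.53 ± 0.07. COL3A1, the type III chain of elastic tissues, showed 0.02 (95% interval -0.17 to 0.20). In RU486 the COL1A1 call rests on the replicate labelled C of the 2 GRα arrays: without it the adjusted p was 0.104.

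COL11A1, a chain of the cartilage collagen type XI, went the other way. Its control vehicle arrays read 8.73, 8.66 and 8.67 and its GRα vehicle arrays 7.80, 7.60 and 7.80. Every one of the 9 control arrays, from 8.60 to 8.73, lay above every one of the 8 GRα arrays, from 7.60 to 7.80. The fall was -0.96 ± 0.06 in vehicle (adjusted p = 3.52e-09), -0.96 in dexamethasone and -1.01 in RU486. None of the probe sets of COL11A2, which encodes another chain of the same trimer, was called in any treatment.

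Type IV collagen has 6 chain genes that lie as 3 head-to-head pairs, and the pairs differed. COL4A1 and COL4A2 encode the chains found in nearly all basement membranes, and both fell. COL4A1 read 7.75, 7.76 and 7.72 in control vehicle arrays against 7.30, 7.12 and 7.34 in GRα vehicle arrays, a change of -0.49 ± 0.07 (adjusted p = 2.84e-05). COL4A2 read 8.18, 8.27 and 8.22 against 7.87, 7.58 and 7.75, a change of -0.48 ± 0.07 (adjusted p = 3.41e-05). For both genes the 9 control arrays lay above the 8 GRα arrays. In RU486 the change of COL4A2 was -0.26, and its call there was lost without the control RU486 replicate A or B or either GRα RU486 array (highest adjusted p 0.0897).

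COL4A3, COL4A4 and COL4A5 form the trimer of specialised basement membranes such as that of the kidney glomerulus. COL4A4 rose by 0.65 ± 0.07 in vehicle, 0.99 in dexamethasone and 0.86 in RU486, the first 1.57-fold (adjusted p = 1.25e-06). Its control vehicle arrays read 6.73, 6.84 and 6.81 and its GRα vehicle arrays 7.48, 7.26 and 7.59. COL4A5 rose by 0.31 ± 0.08 in vehicle and by 0.47 in both other treatments. Its values were low on the array, with means of 5.18 in control and 5.49 in GRα vehicle arrays.

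The neighbours of these genes were called higher in no treatment. COL4A3, across the 418 bases from COL4A4, was lower in vehicle by -0.21 (adjusted p = 0.0374). That call was lost under median centring, trended robust moderation or a fit of only the groups compared. It was lost too when probe sets without a single symbol were added to the fit (highest adjusted p of these fits 0.123). Leaving out the control vehicle replicate B (adjusted p = 0.0815) or C (0.185) also lost it. So did leaving out the GRα vehicle replicate B (0.0957) or C (0.0655). COL4A3 was not called in dexamethasone (-0.03) or RU486 (-0.21). Its means were 6.04 in control and 5.83 in GRα vehicle arrays, below those of COL4A4 (6.79 and 7.44). COL4A6, the neighbour of COL4A5, was called in no treatment (0.10, -0.10 and 0.08). It was also low, with means of 5.16 in control and 5.27 in GRα vehicle arrays. The other 3 genes of network collagens, COL8A1, COL8A2 and COL10A1, were not called either.

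**Figure D2:**
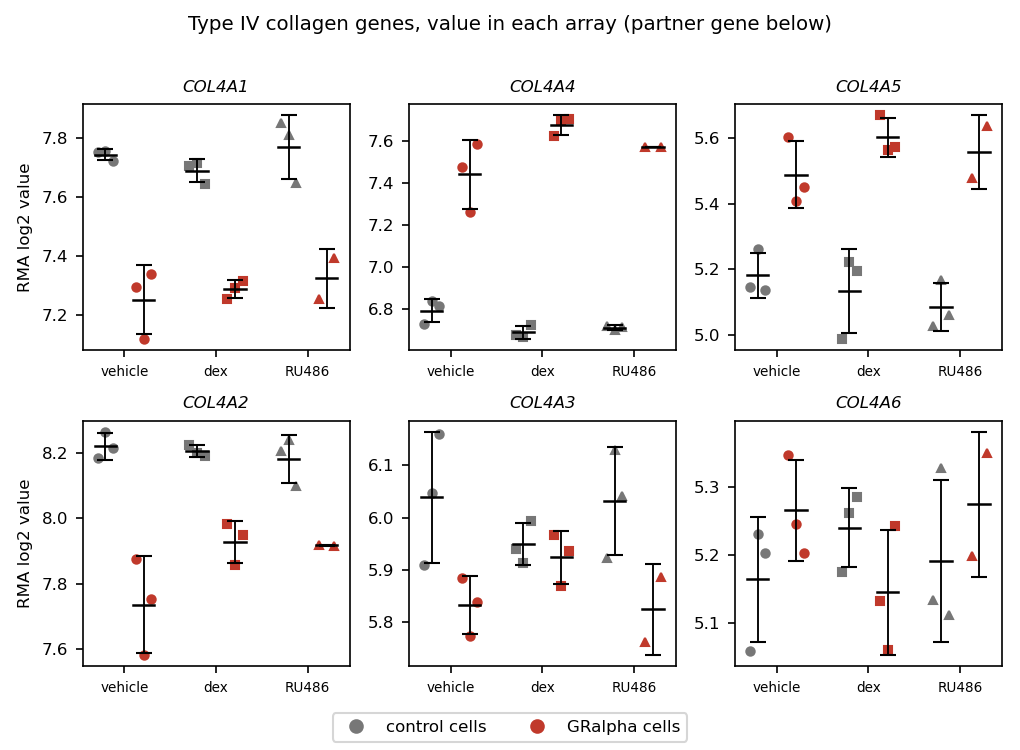
RMA log2 values (y axis, a separate scale in each panel) of the 6 type IV collagen genes in each array, by treatment and line, with the mean and SD of each group; the lower panel of each column is the head-to-head neighbour of the upper one. COL4A1 and COL4A2 are lower in every GRα array, COL4A4 and COL4A5 are higher in every GRα array, and COL4A3 and COL4A6 overlap between the lines.

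Of the beaded-filament, anchoring and other collagens, 2 of 8 were higher and 1 lower in vehicle, beside 14.9% and 18.1% of all probe sets. Type VI collagen forms beaded filaments around cells. Its chain COL6A2 fell in all 3 treatments, from 7.93, 8.06 and 7.90 in the control vehicle arrays to 7.48, 7.45 and 7.48 in the GRα vehicle arrays, a change of -0.49 ± 0.06 (adjusted p = 6.62e-06). Its control arrays (7.87 to 8.07) and GRα arrays (7.42 to 7.53) did not overlap. COL6A1 was called higher in vehicle (0.23, adjusted p = 0.0497) and not in the other treatments (0.13 and 0.15). That call is marginal, since it was lost without 10 of the 17 arrays taken 1 at a time. COL6A3 was not called (0.07 in vehicle). COL26A1 rose by 0.64 ± 0.08 in vehicle, 0.62 in dexamethasone and 0.60 in RU486. COL28A1 was called in dexamethasone (0.32, adjusted p = 0.0328) and RU486 (0.41), and showed 0.22 in vehicle (adjusted p = 0.14); the dexamethasone call was lost when only the groups compared were fitted and without any 1 of the dexamethasone replicates A and C of either line (highest adjusted p 0.141), and the RU486 call without the control replicate C (0.0615) or the GRα replicate B (0.153).

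The fibril-associated collagens, which sit on the surface of fibrils, gave no gene called the same way in all 3 treatments, beside 22.1% of all probe sets. COL21A1 was called higher in vehicle alone (0.29 ± 0.06, adjusted p = 0.0017), with -0.04 in dexamethasone and 0.08 in RU486. COL22A1 was lower in dexamethasone (-0.35, adjusted p = 0.000972), with -0.09 in vehicle and -0.20 in RU486. COL14A1 was lower in vehicle (-0.27) and RU486 (-0.39), with -0.22 in dexamethasone (adjusted p = 0.0592). The COL14A1 call in vehicle was lost without the control vehicle replicate B (adjusted p = 0.0611) or the GRα vehicle replicate C (0.0811), and that in RU486 without the GRα RU486 replicate B (0.0681). COL9A3 (0.27) and COL20A1 (0.24) were called in vehicle alone, and of the 17 fits that leave out an array the COL9A3 call passed in 14 and the COL20A1 call in 4. The COL9A3 call was lost without the control vehicle replicate A (adjusted p = 0.094) or C (0.0788) or the GRα vehicle replicate B (0.104). A call in 1 treatment alone does not show that the treatments differ: the line difference in a ligand's effect was called for no member, as given with the ligands.

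COL25A1 encodes a transmembrane collagen known from neurons. It showed the greatest rise of all members in each treatment. Control vehicle arrays read 6.42, 6.59 and 6.54, and GRα vehicle arrays 8.33, 8.22 and 8.32. Across treatments its control arrays ran from 6.26 to 6.66 and its GRα arrays from 7.99 to 8.33. The rise was 1.77 ± 0.07 in vehicle, 3.42-fold (adjusted p = 3.31e-12), 1.69 in dexamethasone and 1.75 in RU486. Of the other 4 transmembrane or multiplexin collagens, COL18A1, a basement membrane collagen, was lower in RU486 alone (-0.31, adjusted p = 0.00942; 0.152 without the GRα RU486 replicate B), and COL13A1, COL15A1 and COL23A1 were not called.

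Laminin trimers hold 1 alpha, 1 beta and 1 gamma chain, and the 2 common beta chains went in opposite directions. LAMB1 read 9.79, 9.76 and 9.75 in the control vehicle arrays and 10.74, 10.43 and 10.79 in the GRα vehicle arrays. LAMB2 read 9.16, 9.27 and 9.11 in the same control arrays and 8.78, 8.66 and 8.73 in the GRα arrays. For neither gene did any of the 9 control arrays overlap with any of the 8 GRα arrays. LAMB1 rose by 0.89 ± 0.08 (1.86-fold, adjusted p = 5.39e-08) in vehicle, by 1.05 in dexamethasone and by 0.93 in RU486. LAMB2 changed by -0.46 ± 0.06 (adjusted p = 9.38e-06), -0.38 and -0.47.

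Among the other laminin chains LAMC3, a gamma chain, rose by 0.39 ± 0.07 in vehicle, 0.22 in dexamethasone and 0.30 in RU486. The dexamethasone call was lost without the dexamethasone replicate A of the control line (adjusted p = 0.0731) or of the GRα line (0.0985) and the RU486 call without the GRα RU486 replicate C (0.0821). LAMC1, the gamma chain of most laminins, was not called (-0.05 in vehicle, 95% interval -0.23 to 0.13). LAMB4 was called lower in vehicle (-0.18, adjusted p = 0.0477), which passed the threshold in 4 of the 17 fits that leave out an array. LAMA2, the alpha chain of muscle and nerve laminin, was called higher in GRα cells with dexamethasone alone (0.34 ± 0.07, adjusted p = 0.00091), with 0.10 in vehicle and 0.13 in RU486. LAMA1, LAMA4, LAMA5 and LAMB3 were not called in any treatment.

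Integrin alpha chains set which matrix protein a receptor binds, and 6 of 17 were higher and 2 lower in vehicle. Of all probe sets 14.9% were higher and 18.1% lower. ITGAV, ITGA5 and ITGA8 are known to bind the RGD motif of fibronectin and similar proteins, as does the platelet chain ITGA2B, which was not called in any treatment; these genes were set side by side after their values were seen. ITGAV read 9.18, 9.07 and 9.14 in control vehicle arrays and 10.51, 10.52 and 10.54 in GRα vehicle arrays, a rise of 1.39 ± 0.05 or 2.62-fold (adjusted p = 4e-12). ITGA5, the fibronectin receptor chain, read 6.17, 6.26 and 6.34 against 7.32, 6.92 and 7.34, a rise of 0.94 ± 0.10. ITGA8, a chain known from kidney and smooth muscle, read 7.53, 7.53 and 7.52 against 8.54, 8.17 and 8.57, a rise of 0.90 ± 0.09. For each of these 3 genes the 9 control and 8 GRα arrays did not overlap, and the rises in dexamethasone were 1.32, 1.06 and 1.08.

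The collagen-binding alpha chains were divided. ITGA11, which binds fibrillar collagen, rose from 5.39, 5.33 and 5.51 to 6.64, 6.31 and 6.57 in vehicle, by 1.10 ± 0.09 (2.14-fold, adjusted p = 3.92e-08). ITGA2, which binds collagen on epithelial cells and platelets, fell from 7.00, 7.06 and 7.05 to 6.49, 6.56 and 6.83, by 0.41 ± 0.08 on the log2 scale (adjusted p = 0.000654). ITGA2 changed by -0.27 in dexamethasone and -0.29 in RU486. The dexamethasone call was lost without replicate A of the control (adjusted p = 0.0583) or GRα line (0.0549), and the RU486 call without the control replicate A (0.108) or either GRα array (0.104 and 0.103). ITGA10, the remaining collagen-binding chain with a probe set, was not called (-0.18 in vehicle).

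ITGA9, which binds tenascin-C and other ligands, fell from 9.74, 9.76 and 9.74 in the control vehicle arrays to 9.26, 8.93 and 9.32 in the GRα vehicle arrays. The change was -0.57 ± 0.08 (adjusted p = 2.79e-05), -0.41 in dexamethasone and -0.48 in RU486, and the lines did not overlap. The laminin-binding chains ITGA3 and ITGA7 were not called in any treatment (-0.09 and -0.11 in vehicle). ITGA6, the third of them, was lower in RU486 (-0.57 ± 0.12, adjusted p = 0.00199), with -0.20 in vehicle and -0.07 in dexamethasone; the line difference in its RU486 effect was not called (-0.37 ± 0.17, adjusted p = 0.999). ITGAM and ITGAX, alpha chains of leukocyte integrins, were called higher in vehicle alone (0.33 and 0.23). ITGAM showed 0.15 in dexamethasone and 0.10 in RU486, and ITGAX 0.05 and -0.20 (adjusted p = 0.0778), so its sign turned in RU486. The ITGAX call in vehicle was lost with trended, weighted or 2-group fits and without the control vehicle replicate A (adjusted p = 0.12) or the GRα vehicle replicate A (0.06) or B (0.0641).

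Of 8 beta chains, ITGB5, a partner of the αv chain, was the single one called. Of all probe sets 33.1% were called in vehicle, 33.1% in dexamethasone and 29% in RU486. ITGB5 was called in each. It rose by 0.58 ± 0.07 in vehicle (adjusted p = 4.87e-06), 0.55 in dexamethasone and 0.59 in RU486. ITGB1, the partner of most alpha chains, showed 0.05 in vehicle (95% interval -0.08 to 0.17), 0.15 in dexamethasone (adjusted p = 0.0562) and 0.17 in RU486 (0.0545). ITGB3, another partner of αv, showed -0.12 in vehicle. The 3 integrin-binding proteins ITGB1BP1, ITGB1BP2 and ITGB3BP were not called in any treatment.

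TNC encodes tenascin-C, a large glycoprotein that modulates cell adhesion and is known for its expression in development, wounds and tumours. Its control vehicle arrays read 9.12, 9.01 and 9.20, and its GRα vehicle arrays 6.19, 5.61 and 6.14. With dexamethasone the arrays read 9.14, 9.00 and 9.04 in control cells and 6.17, 6.02 and 5.86 in GRα cells. With RU486 they read 9.12, 9.08 and 9.13 in control cells and 5.97 and 6.04 in GRα cells. The lines thus lay more than 3 log2 units apart in every treatment, and TNC was called with no ligand in either line. The differences were -3.13 ± 0.12 (8.77-fold, adjusted p = 2.53e-12), -3.04 and -3.11.

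The fibrillins, which build the microfibrils that carry elastin, both rose. FBN2 read 8.18, 8.18 and 8.21 in control vehicle arrays and 9.71, 9.20 and 9.68 in GRα vehicle arrays, a rise of 1.34 ± 0.10 or 2.53-fold (adjusted p = 6.5e-09). FBN1 rose by 0.72 ± 0.10 in vehicle, 0.90 in dexamethasone and 0.85 in RU486. In both genes the GRα vehicle replicate B was the lowest GRα array (9.20 and 7.70) and still above every control array.

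SPARC, a collagen-binding glycoprotein, rose by 0.24 ± 0.05 in vehicle, 0.28 in dexamethasone and 0.34 in RU486. FN1, which encodes fibronectin, rose by 0.27 ± 0.07 in vehicle and 0.29 in dexamethasone. In RU486 its change was 0.23 (adjusted p = 0.0452), and 0.14 without the GRα RU486 replicate B. That call is marginal, since it passed in 7 of the 17 fits that leave out an array. It was also lost with all probe sets of the table, a second quantile normalization, trended robust moderation or a fit of only the groups compared. FN1 values were low on the array, with means of 5.16 in control and 5.43 in GRα vehicle arrays. COL5A2, COL14A1, COL21A1, COL28A1 and ITGAM were similarly low, with control vehicle means of 5.06, 5.29, 4.70, 5.11 and 5.15. The nidogens NID1 and NID2 and the thrombospondins THBS1 and THBS2 were called between the lines in no treatment.

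**Figure D3:**
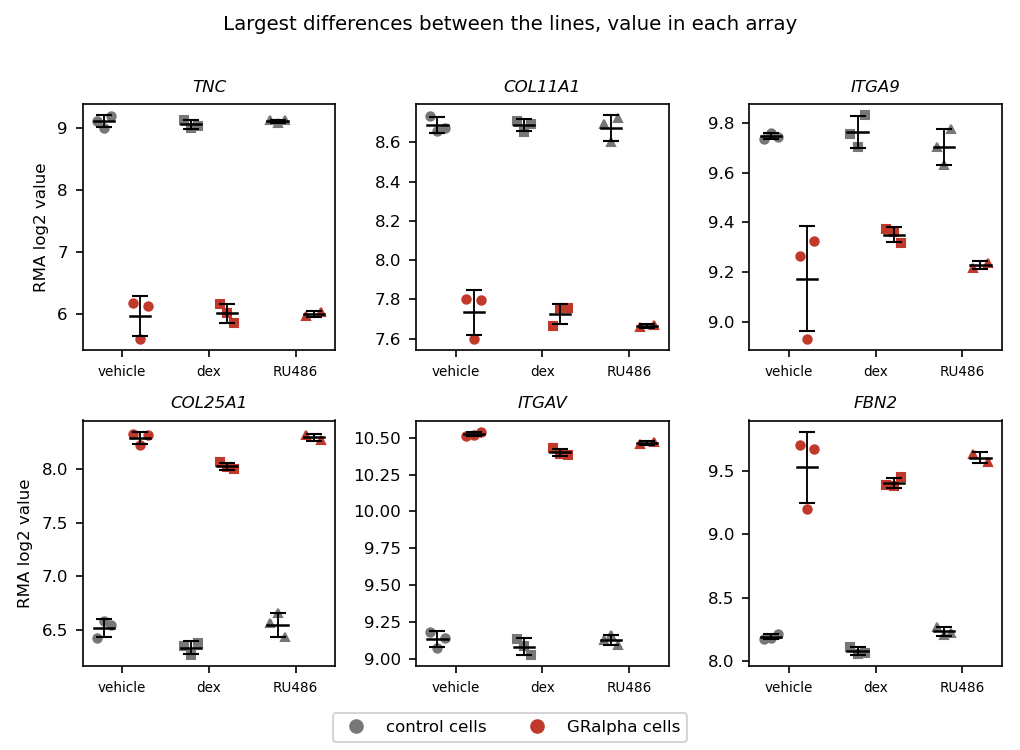
RMA log2 values (y axis, a separate scale in each panel) in each array for 3 of the members with the largest falls and the 3 with the largest rises in vehicle, by treatment and line, with the mean and SD of each group. In each panel the control and GRα arrays do not overlap, and the GRα vehicle replicate B is the lowest of the vehicle GRα arrays for TNC, COL11A1, ITGA9, COL25A1 and FBN2.

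The second question was what the ligands do to these genes within a line. The check genes responded: ZBTB16, a known glucocorticoid target, rose by 2.49 ± 0.09 with dexamethasone in GRα cells and by 1.42 ± 0.09 in control cells, and PER1 by 1.34 and 0.95. Among the members, NID1 and LAMA2 rose with dexamethasone in GRα cells and none fell, beside 1.32% of all probe sets that rose and 0.632% that fell. That share is near the background and is no result about the group. In control cells 0 of 92 members were called in either direction (limma; 4 at an unadjusted p under 0.05), beside 0.252% of all probe sets.

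NID1 encodes nidogen-1, the link between laminin and type IV collagen. It read 7.44, 6.89 and 7.42 in GRα vehicle arrays, 7.80, 7.81 and 7.61 in GRα dexamethasone arrays, and 7.34 and 7.16 with RU486. In control cells the values were 7.42, 7.37 and 7.50 with vehicle, 7.55, 7.60 and 7.57 with dexamethasone and 7.52, 7.45 and 7.39 with RU486. The dexamethasone arrays were the highest in both lines and did not overlap with vehicle in either. Such lack of overlap with vehicle held for 15.9% of all probe sets in GRα cells and 12.7% in control cells. The rise was 0.48 ± 0.11 in GRα cells (1.40-fold, adjusted p = 0.0317) and 0.15 ± 0.11 in control cells (adjusted p = 0.999). The rise in GRα cells depends on the vehicle replicate B, which stands apart: without it the rise was 0.30 (adjusted p = 0.0612), and without the dexamethasone replicate A or B the adjusted p was 0.104 or 0.132.

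LAMA2 encodes the laminin α2 chain. GRα arrays read 10.04, 9.76 and 10.07 with vehicle, 10.32, 10.30 and 10.26 with dexamethasone, and 9.96 and 9.97 with RU486. Control arrays read 9.87, 9.84 and 9.85, then 9.99, 9.93 and 9.94, and 9.82, 9.85 and 9.83. As for NID1, dexamethasone arrays lay above vehicle arrays without overlap in both lines, and RU486 arrays did not. The shares of all probe sets without such overlap are those given with NID1. The rise was 0.33 ± 0.07 in GRα cells (1.26-fold, adjusted p = 0.016) and 0.10 ± 0.07 in control cells (adjusted p = 0.999). Without the vehicle replicate B the rise in GRα cells was 0.24 (adjusted p = 0.0235), and without the dexamethasone replicate A or B the adjusted p was 0.066 or 0.0656. Neither call was made when only the 2 groups compared were fitted, with an adjusted p of 0.331 for NID1 and 0.324 for LAMA2.

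Whether dexamethasone acts differently in the 2 lines was tested for every probe set. The difference in effect was 0.34 ± 0.16 for NID1 (adjusted p = 0.665) and 0.24 ± 0.10 for LAMA2 (adjusted p = 0.62), and 0 of 92 members were called (limma; 8 at an unadjusted p under 0.05), beside 0.0617% of all probe sets. A larger effect in GRα cells is therefore not shown for either gene. Just outside the threshold in GRα cells lay COL25A1, which changed by -0.26 ± 0.07 (adjusted p = 0.0593), with -0.18 in control cells (adjusted p = 0.785). COL4A4 showed 0.24 in GRα cells (adjusted p = 0.111) and -0.10 in control cells. Over all members the changes with dexamethasone ran from -0.26 to 0.48 in GRα cells and from -0.18 to 0.24 in control cells.

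**Figure D4:**
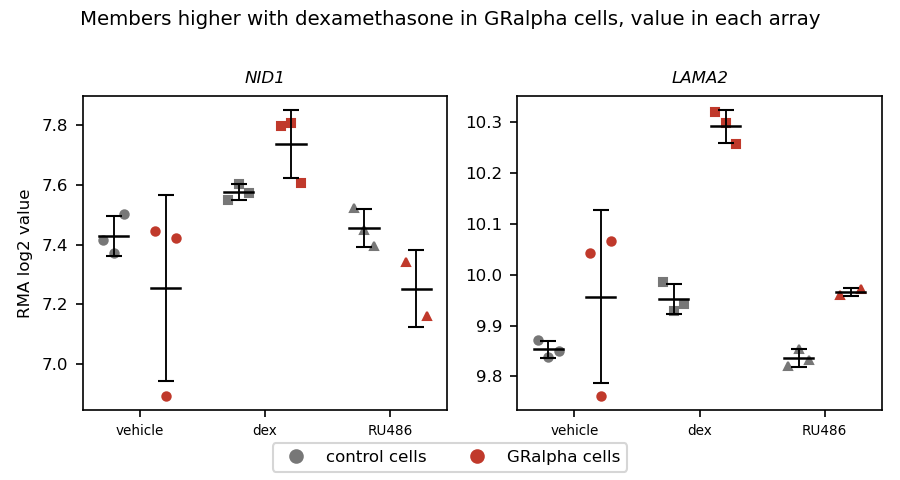
RMA log2 values (y axis, a separate scale in each panel) of NID1 and LAMA2 in each array, by treatment and line, with the mean and SD of each group. In both lines the dexamethasone arrays lie above the vehicle arrays, and the GRα vehicle replicate B, at 6.89 for NID1 and 9.76 for LAMA2, lies below the other GRα vehicle arrays.

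With RU486 no member was called in GRα cells or in control cells (limma, 0 of 92 each; 2 and 1 at an unadjusted p under 0.05), beside 0% of all probe sets in each. The changes ran from -0.30 to 0.19 in GRα cells and from -0.23 to 0.25 in control cells. The 95% interval of the change lay within 0.5 log2 units of 0 for 90 of 92 members in each line. NID1 showed -0.0015 (95% interval -0.27 to 0.26) and LAMA2 0.0092 (-0.15 to 0.17) in GRα cells. The line difference in the RU486 effect was called for 0 members (4 at an unadjusted p under 0.05), beside 0% of all.

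Dexamethasone and RU486, given at the same dose and time, were also set directly against each other in each line. No member was called in GRα cells (limma; 8 at an unadjusted p under 0.05), beside 0.822% of all probe sets, or in control cells (4), beside 0.365%. The 2 members nearest to a call in GRα cells were LAMA2, higher with dexamethasone by 0.33 (95% interval 0.16 to 0.49, adjusted p = 0.0652), and NID1, higher by 0.49 (0.22 to 0.75, adjusted p = 0.0997). In control cells the same differences were 0.12 (-0.03 to 0.26) and 0.12 (-0.11 to 0.36). These comparisons share the dexamethasone arrays with those against vehicle.

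The enzymes and partner proteins of the matrix were read from 5 further lists, whose counts in vehicle stand beside 14.9% of all probe sets higher and 18.1% lower. Where a gene of these lists or of the cell type markers has several probe sets, the one with the highest mean was read. The shares of all count every probe set, so the units differ. Of 31 genes for collagen folding, processing and cross-linking, 9 were higher and 7 lower in GRα cells with vehicle. The lysyl oxidase-like cross-linking enzyme LOXL3 rose by 1.24 ± 0.10 and LOXL2 by 0.39. The prolyl 4-hydroxylase subunits, which stabilise the collagen helix, went apart, with P4HA2 up by 0.80 and P4HA1 changed by -0.80. The proline isomerase PPIB rose by 0.77, and the lysyl hydroxylases PLOD1 and PLOD2 changed by -0.25 and -0.28.

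Of 35 matrix proteases and inhibitors, 11 were higher and 4 lower. The type IV collagenase MMP2 rose by 1.48 ± 0.09 and its inhibitor TIMP2 by 0.91, the aggrecanase-family protease ADAMTS9 by 1.01, and MMP24 by 0.56. MMP16 changed by -1.20, ADAMTS1 by -0.74, MMP15 by -0.40 and TIMP1 by -0.22. Of 68 proteoglycans and other matrix proteins, 11 were higher and 5 lower. SPOCK1, a testican, rose by 1.65 ± 0.07 and the hyaluronan-binding versican gene VCAN by 0.80, while the heparan sulfate proteoglycan SDC2 changed by -1.52, the cartilage proteoglycan ACAN by -0.68 and MFAP2 by -0.58.

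Of 27 integrin adaptors and focal adhesion proteins, 8 were higher and 3 lower, led by the actin cross-linker ACTN1 (0.70) and ZYX (0.58) on one side and ENAH (-0.58) on the other. Of 8 other matrix receptors 2 were higher and 2 lower: CD44, which binds hyaluronan, rose by 0.53 and BCAM, which binds laminin, by 0.31, and CD36 changed by -1.93 and CD47 by -0.28. The lists' median changes were 0.05, 0.13, 0.11, 0.04 and 0.03 in the order given, beside 0.0083 over all probe sets. Dexamethasone in GRα cells raised 1.32% of all probe sets and lowered 0.632%. Of these lists, 1 protease and 1 adaptor rose and none fell. They were ADAMTS9 (0.51, adjusted p = 0.0246) and VCL, which encodes vinculin (1.08, adjusted p = 5.58e-07). The VCL response was larger in GRα than in control cells by 0.72 (adjusted p = 0.0243), a line difference called for 0.0617% of all probe sets.

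Markers of 8 cell types were read in vehicle, where 14.9% of all probe sets were higher in GRα cells and 18.1% lower. Of the 12 adrenocortical markers measured, 8 were lower and 1 higher in GRα cells with vehicle, among them HSD3B2 (-1.59), SULT2A1 (-1.09) and STAR (-0.91), and their mean over genes ranged from 8.68 to 8.74 in control vehicle arrays and from 8.15 to 8.28 in GRα vehicle arrays. Of 13 fibroblast markers, PDGFRB (0.34) and FAP (0.33) were higher and none lower, and the mean ranged from 5.29 to 5.40 in control and from 5.41 to 5.48 in GRα arrays. Gene means of this list ran from 3.53 (LUM) to 9.33 (FAP) in control and from 3.55 (LUM) to 9.66 (FAP) in GRα vehicle arrays, with medians of 5.01 and 4.94, and TWIST1 read 8.31 and 8.19. The smooth muscle gene ACTA2 rose by 1.33 and was the single one called of 7 such markers. Of 9 chromaffin markers CHGB (2.95) and CHGA (0.54) were higher; of 11 endothelial markers KDR and CDH5; of 10 epithelial markers EPCAM; and of 11 leukocyte and 3 Schwann cell markers none in either direction. The part of these markers in the members' differences was not tested.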

How the data were processed

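RNA of 17 arrays in 6 groups was analysed. The authors deposited log2 values made with RMA (background correction, quantile normalization and a summary of the probes of each set), per the submitters' processing notes, which also name limma. Neither versions nor a build are given in the sources used here. This normalization would hide a shift shared by most genes. Probe sets were named from the platform annotation, updated through RefSeq by Entrez number for 19429 of 19460 single-symbol probe sets; 1754 with several symbols and 7939 with none were left out.

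All 19460 were fitted together with limma 3.58.1 (R 4.3.3), with 6 group means and 11 residual degrees of freedom. The 11 contrasts were two-sided, and calls needed a Benjamini-Hochberg adjusted p under 0.05. No filter on low values was applied, so all 92 members were tested. The script was tested on simulated data. Figures and motif counts used Python 3.11.15. With 2 or 3 arrays in a group, precision is limited by their number.

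Members and gene lists were chosen with earlier results of these data known. Within each role, the text names the largest calls shared by the 3 treatments, single-treatment and ligand calls and the brightest genes not called; per-array values are given for the 8 largest rises and 8 largest falls without overlap. Remarks on neighbouring type IV collagen genes and motifs were added after the values were seen.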

Additional observations from a re-analysis of the deposited data

How the results depend on the processing

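Alternatives were 1 probe set per gene, all probe sets of the table, median centring of arrays, a second quantile normalization, no probe sets from the dimmest 25%, trended robust moderation, array weights, fitting only the groups compared, a replicate block and leaving out each of the 17 arrays. No called member changed direction under any of them, and no scaling moved the median of all probe sets by 0.1. Of the 97 calls of members between the lines, 79 held under every alternative that included their probe set, and 22 genes held in all 3 treatments. Among these, COL4A5, COL5A2, FN1, COL21A1 and ITGAM were not in the fit without the dimmest 25%, so their calls were not tested there. Leaving out 1 array gave 31 to 36 calls in vehicle, 27 to 32 in dexamethasone and 25 to 33 in RU486; the other alternatives gave 29 to 36, 27 to 32 and 29 to 34.

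For dexamethasone in GRα cells, the 2 calls became 1 with array weights and 0 when only the groups compared were fitted, where NID1 had an adjusted p of 0.331 and LAMA2 of 0.324. Leaving out 1 array gave 0 to 3 calls, with 0 without the GRα dexamethasone replicate A or B. For dexamethasone against RU486 in GRα cells, the 0 calls became 1 without the dimmest 25% of probe sets, 2 with trended robust moderation and 2 with array weights. Leaving out 1 array gave 0 to 2 calls, with 2 without the GRα vehicle replicate B and 1 without replicate C. Fitting only the groups compared leaves fewer arrays to estimate the spread, and it leaves out groups of smaller spread. The SD in GRα vehicle arrays was 0.31 for NID1 and 0.17 for LAMA2. In the groups left out it was 0.03 to 0.13 for NID1 and 0.0075 to 0.03 for LAMA2. The cause of these changes in calls was not tested for any alternative.

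Deviations of same-letter arrays from their group means correlated at a median of -0.014 over 40 pairs (-0.257 to 0.319). For other-letter arrays the median was 0.015 over 80 pairs (-0.36 to 0.285). Both medians pool pairs within and across lines, so they cannot exclude pairing by letter within a line. Same-letter pairs ran from -0.025 to 0.319 within control cells and from -0.089 to 0.097 within GRα cells. Other-letter pairs within control cells ran from -0.36 to 0.27. The replicate block gave 33 calls in vehicle, 30 in dexamethasone, 31 in RU486 and 2 for dexamethasone in GRα cells. This block fits an effect of each letter that both lines share. It therefore cannot take up pairing that is present within a single line, and its counts do not bear on such pairing.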
